A study of Mus musculus with 3 samples.

Results

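The marrow niche genes described here are *Cxcl12*, *Kitl*, *Il7*, *Angpt1*, *Vcam1* and *Lepr*, chosen by symbol, and all 6 were found among the 26970 genes of the expression table. They were measured by RNA sequencing of mandibular condyles, dissected with cartilage and subchondral bone joined, from 4-month-old mice in the C57BL/6 background. The libraries were WT (+/+), *Dspp*+/- (labelled HE, with 1 of the alleles of the dentin sialophosphoprotein gene deleted) and *Dspp*-/- (labelled HO, a global knockout), with 1 library per genotype. Tissue of 3 animals was pooled for WT and for *Dspp*+/-, the number of animals behind *Dspp*-/- is not given in the sources used here, and although the labels speak of triplicate samples, 1 column per genotype was analysed. *Dspp*+/- mice came from a cross of *Dspp*-/- with wild-type C57BL/6 mice. The study describes tooth loss in *Dspp*-/- mice older than those sequenced. It also describes a disturbed bite, which limits *Dspp*-/- mice as a model of the condyle alone.

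Blood formation in adult marrow depends on signals from stromal cells around the sinusoids, often called CXCL12-abundant reticular cells, most of which carry the leptin receptor on their surface. These cells and endothelial cells supply the chemokine that holds stem cells and B cell precursors in place, the growth factors that keep progenitors and early lymphoid cells alive, and adhesion molecules that blood cells grip. Reticular cells also belong to the lineage that gives osteoblasts and marrow adipocytes. The question asked of the genes was therefore whether they go with the higher blood-forming genes or with the lower bone genes of the mutant libraries.

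Since each genotype has 1 library, genotypes could not be tested against each other, and every difference below is between single pooled libraries. The values are FPKM, fragments per kilobase of gene scaled to library size, and rest on 20241576 fragments in WT, 23613621 in the *Dspp*+/- library and 22253158 in the *Dspp*-/- library. Brackets after a fold or a ratio of 2 genes give its 95% Clopper-Pearson interval, which covers counting error only and not the spread between mice. The libraries differed in other ways that genotype cannot be told apart from. For *Xist*, the X-inactivation RNA of female cells, 2 fragments were counted in WT against 12084 and 10563 in the *Dspp*+/- and *Dspp*-/- libraries, and mitochondrially encoded genes held 9.58%, 16.5% and 16.1% of the fragments. *Dspp* itself was not analysed here and gives no check of the genotypes. In whole tissue, fewer cells of a type and less RNA per cell cannot be told apart.

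*Cxcl12*, *Kitl*, *Angpt1*, *Vcam1* and *Il7* were higher in both mutant libraries than in WT, and *Lepr* was below WT in *Dspp*+/- and above it in *Dspp*-/-. The promoter sequences of *Cxcl12* and *Kitl*, whose folds in *Dspp*+/- were close (1.63 and 1.66), and of *Lepr*, whose fold was not, are shown as the letters just upstream of these genes. In *Dspp*-/- the fold of *Cxcl12* (1.35) was instead close to that of *Lepr* (1.29), with *Kitl* at 1.66. A link between the letters and the folds was not tested. The sequences are the 250 bases before the start site in RefSeq's GRCm38.p6, with 3 of the 6 genes in the sequence table used. Capitals mark GGGCGG (the GC box) and TATAAA (the TATA box) on either strand. *Lepr* has a pair of start sites in the table, and the first is shown.

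Cxcl12 promoter, chr6:117168285-117168534, plus strand: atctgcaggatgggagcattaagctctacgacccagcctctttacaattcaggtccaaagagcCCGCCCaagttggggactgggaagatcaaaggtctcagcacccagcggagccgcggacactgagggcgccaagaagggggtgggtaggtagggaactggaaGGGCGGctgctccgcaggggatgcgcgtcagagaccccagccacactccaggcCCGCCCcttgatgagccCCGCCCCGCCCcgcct

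Kitl promoter, chr10:100015571-100015820, plus strand: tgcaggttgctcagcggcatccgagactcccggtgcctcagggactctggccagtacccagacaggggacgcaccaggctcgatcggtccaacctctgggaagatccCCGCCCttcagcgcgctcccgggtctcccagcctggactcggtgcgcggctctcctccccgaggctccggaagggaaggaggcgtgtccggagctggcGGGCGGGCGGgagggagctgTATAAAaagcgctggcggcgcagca

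Lepr promoter, chr4:101717157-101717406, plus strand: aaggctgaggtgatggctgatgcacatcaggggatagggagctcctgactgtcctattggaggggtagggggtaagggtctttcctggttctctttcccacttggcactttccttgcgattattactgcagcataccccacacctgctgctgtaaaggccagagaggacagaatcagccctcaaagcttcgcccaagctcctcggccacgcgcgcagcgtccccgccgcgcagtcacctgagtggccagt

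The *Cxcl12* window held 5 matches to the GC box and the *Kitl* window 3, the last 2 of them overlapping each other in both windows, while the first *Lepr* window held 0 and the window of its other start site 1. Of 32851 promoter windows of this length, 32.7% held at least 1 GC box. The TATA box was found once, in *Kitl*, with its first base 25 bases before the start site, against 12.4% of all windows. The letters CCCNNGGG of the EBF factors and GTAAACA of the forkhead factors, families to which the reticular cell regulators EBF3 and FOXC1 belong, had 0 matches in the 4 windows of the 3 genes, against 11.8% and 3.17% of all windows. The GC content of the windows was 64.4% for *Cxcl12*, 69.2% for *Kitl* and 58.4% for the first start of *Lepr*, with a median of 52.4% over all promoters. A match is a description of letters and not a binding site.

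*Cxcl12* encodes the chemokine that retains stem cells and B cell precursors in marrow, and it was the most abundant of the niche genes in every library. It had 41.3 FPKM in WT, 67.5 in the *Dspp*+/- library and 55.6 in the *Dspp*-/- library, from 6831, 13024 and 10116 fragments. The level in WT was the lowest and exceeded that of 96.9% of all genes. *Dspp*+/- had 1.63 times (1.59 to 1.68) and *Dspp*-/- 1.35 times (1.31 to 1.39) the WT level. The intervals do not overlap, and *Dspp*-/- had 0.824 times (0.803 to 0.846) the level of *Dspp*+/-. In the authors' table the gene (ENSMUSG00000061353) lies on chromosome 6 from 117145496 to 117158328. The build of these positions is not named, and only 578 genes of the table share both ends with GRCm38 (GENCODE M21).

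*Kitl* encodes stem cell factor, the ligand of the receptor KIT that stem cells, mast cells and early red cell precursors carry. It had 13.2 FPKM in WT and 21.9 in each mutant library, from 1583, 3058 and 2882 fragments. Both mutant libraries had 1.66 times (1.56 to 1.76) the WT level. Its level in *Dspp*-/- was 1.00 times (0.950 to 1.05) that in *Dspp*+/-, so the mutant libraries did not differ beyond counting error. The deposited value is 1 sum per gene, and the membrane-bound and soluble forms of the factor were not separated. The gene (ENSMUSG00000019966) lies on chromosome 10 from 99851492 to 99936278.

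*Il7* encodes interleukin 7, the factor on which B cell precursors in mouse marrow depend. It was the least abundant of the niche genes, with 0.279 FPKM in WT, 0.464 in the *Dspp*+/- library and 0.651 in the *Dspp*-/- library. These levels rest on 32, 62 and 82 fragments. The fold was 1.66 (1.07 to 2.63) for *Dspp*+/- over WT and 2.33 (1.53 to 3.63) for *Dspp*-/- over WT, so WT was the lowest library, while the difference between the mutant libraries, 1.40-fold (0.997 to 1.99), was within counting error. *Il7* (ENSMUSG00000040329, chromosome 3 from 7635054 to 7678820) had a mean under 1 FPKM and is left out of counts of genes compared.

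*Angpt1* encodes angiopoietin 1, which acts on the receptor TIE2 of endothelial and stem cells. It had 1.73 FPKM in WT, 3.50 in the *Dspp*+/- library and 3.21 in the *Dspp*-/- library, from 182, 430 and 372 fragments. The fold was 2.03 (1.70 to 2.42) for *Dspp*+/- over WT and 1.86 (1.55 to 2.23) for *Dspp*-/- over WT. Both mutant libraries were above WT, and their ratio to each other, 0.918 (0.797 to 1.06), was within counting error. Of the exon length of *Angpt1* (ENSMUSG00000022309, chromosome 15 from 42288119 to 42540373), 14.2% overlaps *Gm17473* in GENCODE M21, and whether strand was used in counting is not given in the sources used here, so fragments of this overlap cannot be told apart.

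*Vcam1* encodes the adhesion molecule that blood cells bind through the integrin VLA-4, and stromal, endothelial and macrophage cells can carry it. It had 6.67 FPKM in WT, 14.4 in the *Dspp*+/- library and 10.6 in the *Dspp*-/- library, from 1197, 3016 and 2084 fragments. Its fold of 2.16 (2.02 to 2.31) in *Dspp*+/- was the highest among the 6 genes in that library. The fold in *Dspp*-/- was 1.58 (1.47 to 1.70), and this library had 0.733 times (0.693 to 0.776) the level of *Dspp*+/-. The gene (ENSMUSG00000027962) lies on chromosome 3 from 115903598 to 115923337.

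*Lepr* encodes the leptin receptor, the surface marker of most reticular cells and the 1 niche gene here that is a receptor. It had 11.5 FPKM in WT, 10.1 in the *Dspp*+/- library and 14.8 in the *Dspp*-/- library, from 1636, 1676 and 2323 fragments. WT lay between the mutant libraries for this gene only among the 6. The fold was 0.878 (0.820 to 0.941) for *Dspp*+/- over WT and 1.29 (1.21 to 1.38) for *Dspp*-/- over WT, and *Dspp*-/- had 1.47 times (1.38 to 1.57) the level of *Dspp*+/-. This pattern, below WT in *Dspp*+/- and above it in *Dspp*-/-, was found in 9.01% of the genes compared. The long signalling form and the short forms of the receptor are summed in the deposited value. The gene (ENSMUSG00000057722) lies on chromosome 4 from 101574601 to 101672549.

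**Figure D1:**
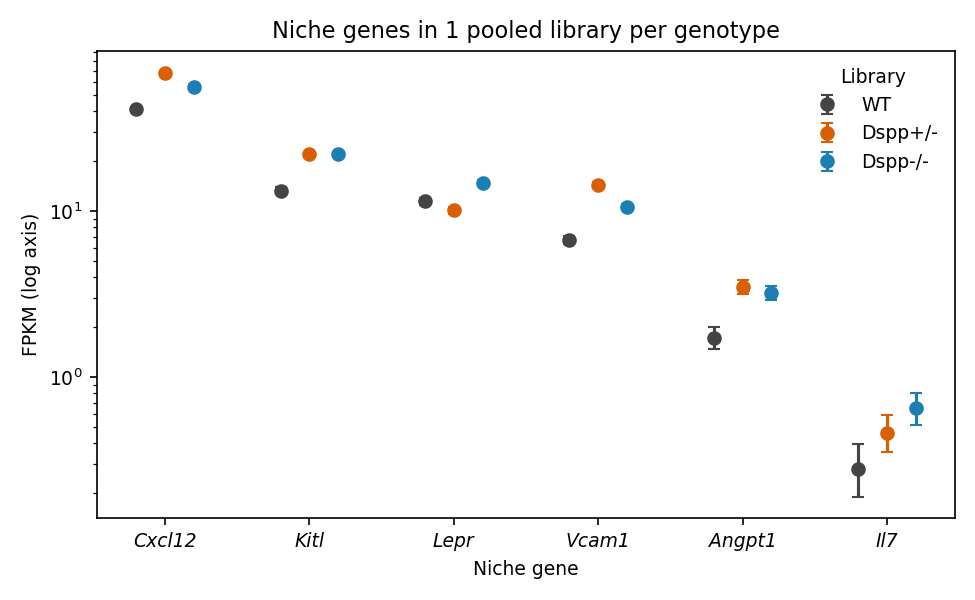
FPKM of the 6 niche genes on a log axis, with 1 point per library and exact 95% Poisson intervals that cover counting error only. *Cxcl12* sits highest in every library, *Il7* lowest, and *Lepr* is the 1 gene whose WT point lies between the *Dspp*+/- and *Dspp*-/- points.

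The order of the levels differed in 1 place between the libraries. In WT and in *Dspp*-/- it was *Cxcl12*, *Kitl*, *Lepr*, *Vcam1*, *Angpt1* and *Il7*, and in *Dspp*+/- *Vcam1* (14.4 FPKM) stood above *Lepr* (10.1 FPKM). The ratio of the FPKM of *Vcam1* to that of *Lepr* was 0.5815 (0.539 to 0.627) in WT, 1.43 (1.35 to 1.52) in the *Dspp*+/- library and 0.713 (0.672 to 0.757) in the *Dspp*-/- library. These ratios are within a library, so library size does not enter them. *Kitl* and *Lepr*, the nearest neighbours in WT, had a ratio of 1.15 (1.08 to 1.24) there, so that they too differed by more than counting error. *Cxcl12* per *Lepr* was 3.60 (3.41 to 3.80) in WT, 6.70 (6.37 to 7.05) in the *Dspp*+/- library and 3.75 (3.59 to 3.93) in the *Dspp*-/- library. *Dspp*+/- was thus apart from the other libraries, whose intervals overlap. *Cxcl12* per *Kitl* was 3.12 (2.95 to 3.30) in WT and 3.08 (2.96 to 3.20) in *Dspp*+/-, within counting error of each other, and 2.54 (2.435 to 2.65) in *Dspp*-/-. The summed FPKM of the 6 genes was 74.6 in WT, 118 in the *Dspp*+/- library and 107 in the *Dspp*-/- library.

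To set these values beside those of other genes, the log2 ratio of FPKM + 1 was used, a scale that understates differences of weakly expressed genes. It was taken for the 13026 genes whose mean over the libraries reached 1 FPKM, 5 of the niche genes among them. Of these 5, 4 were above WT by any amount in *Dspp*+/-, where 56.3% of all genes compared were, and 5 in *Dspp*-/-, where 50.7% were. In *Dspp*+/- against WT, *Vcam1* alone was at least 2-fold higher, with a log2 ratio of 1.01 just past the threshold of 1, where 4.88% of all genes were, and 0 niche genes were at least 2-fold lower, against 2.86%. At 1.5-fold, 4 of the 5 genes were higher (*Vcam1*, and *Angpt1*, *Cxcl12* and *Kitl* with log2 ratios of 0.72, 0.70 and 0.69), against 11.5% of all genes, and 0 were lower, against 8.95%. In *Dspp*-/- against WT, 0 were at least 2-fold higher, against 4.05% of all genes, and 0 at least 2-fold lower, against 1.37%. At 1.5-fold, 3 of the 5 were higher, against 8.84%, and 0 lower, against 8.21%. The higher genes were *Kitl* (log2 ratio 0.69), *Angpt1* (0.63) and *Vcam1* (0.59), and the same genes were past 1.5-fold in both mutant libraries, against 7.06% of all genes. *Cxcl12* and *Lepr* had log2 ratios of 0.42 and 0.34 in *Dspp*-/-. With housekeeping scaling, *Kitl*, *Angpt1* and *Vcam1* had 0.55, 0.52 and 0.46 in *Dspp*-/-, all short of 1.5-fold. In *Dspp*+/- that scaling left *Cxcl12* (0.54) and *Kitl* (0.53) short, while *Angpt1* (0.60) and *Vcam1* (0.86) stayed past it. The shares of all genes were not counted with that scaling.

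Between the mutant libraries, 0 of the 5 genes differed by 1.5-fold, where 3.39% of all genes were higher and 4.32% lower in *Dspp*-/-, and 0 by 2-fold, where 0.852% were higher and 0.798% lower. *Lepr* and, by a log2 ratio of 0.0001, *Kitl* had the higher value in *Dspp*-/-, as had 44.7% of all genes. *Lepr* came nearest to the threshold, with a log2 ratio of 0.51 in *Dspp*-/- against *Dspp*+/-, followed by *Vcam1* with -0.41. Counting error was small at this depth for most genes. In *Dspp*+/- against WT the interval of the fold was above 1 for 39.4% and below 1 for 28.4% of the genes with recovered fragments, and in *Dspp*-/- for 34.1% and 33.6%. Between the mutant libraries it was above 1 for 25.5%, *Lepr* among them, and below 1 for 34.6%, *Cxcl12* and *Vcam1* among them. An interval away from 1 was therefore common.

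The bone genes, 18 markers of osteoblasts and 8 of osteocytes written by hand, were lower in both mutant libraries. All 25 that passed the filter on low values were below WT, the median log2 ratio being -1.51 in *Dspp*+/- and -0.89 in *Dspp*-/-. The blood-forming genes, 81 markers of progenitors, red cell precursors, neutrophils, megakaryocytes and B cells, were higher, with 69 of 74 above WT and a median of 1.94 in *Dspp*+/-, and 73 of 74 and a median of 1.79 in *Dspp*-/-. The median over all genes compared was 0.06 in *Dspp*+/- and 0.01 in *Dspp*-/-. The WT library is shared by both comparisons.

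The niche genes lay between these groups in both comparisons. On the log2(FPKM + 1) scale all 6, *Il7* and *Lepr* included, were above each of the 25 bone genes in *Dspp*+/- and in *Dspp*-/-, but so were 92.0% and 51.2% of all genes compared. In *Dspp*+/- this did not set the niche genes apart. In *Dspp*-/- the highest bone gene had a log2 ratio of -0.0033, so the count there was nearly that of genes above WT. With the chondrocyte list joined to the bone genes, the number above each of them was 4 in *Dspp*+/- and 6 in *Dspp*-/-. None of the 6 reached the median of the blood-forming genes in either comparison, which 1.04% and 1.11% of all genes did. *Vcam1* was above 14 of the 74 blood-forming genes in *Dspp*+/-, *Cxcl12*, *Kitl* and *Angpt1* each above 9, *Il7* above 6 and *Lepr* above 4. In *Dspp*-/- the numbers ran from 7 for *Cxcl12*, *Lepr* and *Il7* to 11 for *Kitl*. Among all genes compared, the log2 ratios of *Cxcl12*, *Kitl*, *Angpt1* and *Vcam1* in *Dspp*+/- exceeded those of 90.9% to 95.2%, and that of *Lepr* exceeded 27.7%. In *Dspp*-/- the 5 compared genes exceeded 81.3% to 92.9%.

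Measured by distance to the medians, 4 genes in *Dspp*+/- were nearer to the blood-forming than to the bone median (*Cxcl12*, *Kitl*, *Angpt1* and *Vcam1*), against 33.1% of all genes. *Vcam1* was 0.94 from the blood-forming and 2.52 from the bone median. *Lepr* was nearer to the bone median, at 1.34 against 2.11, and *Il7* slightly so, at 1.70 from the bone and 1.75 from the blood-forming median. In *Dspp*-/-, 3 genes were nearer to the blood-forming median (*Kitl*, *Angpt1* and *Vcam1*), against 13.0% of all genes. *Cxcl12* was there 1.37 from the blood-forming and 1.31 from the bone median, and the count ranged from 3 to 5 in *Dspp*+/- and from 1 to 6 in *Dspp*-/- with the pseudocount, scaling, filter and lists. The shares of 33.1% and 13.0% of all genes hold for the reported settings and were not counted under the others. The low ends of the count, 3 and 1, came with the filter at 5 FPKM, which left *Il7* and *Angpt1* out of it. In *Dspp*-/- that filter also raised the blood-forming median to 2.24, with the bone median at -0.89. *Vcam1*, at 0.59, was then nearer to the bone median.

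**Figure D2:**
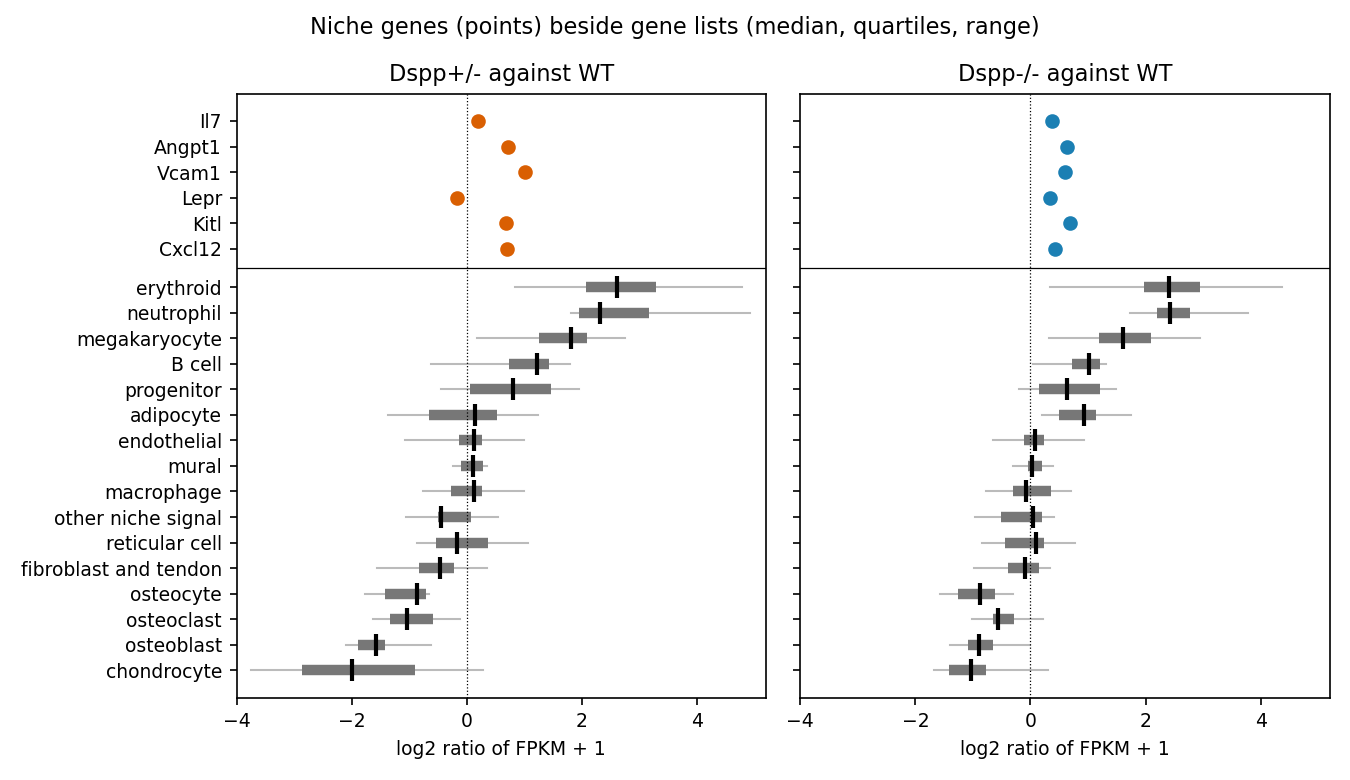
Log2 ratios of FPKM + 1 against WT for the niche genes (points, above the line) and for 16 hand-written gene lists (tick for the median, thick bar for the quartiles, thin line for the range, low genes filtered out except *Il7*). In *Dspp*+/- *Cxcl12*, *Kitl* and *Angpt1* lie near the progenitor median of 0.80 (quartiles 0.06 to 1.46). *Vcam1*, at 1.01, lies between this median and the B cell median of 1.22. These genes lie above the bone lists and below the erythroid and neutrophil quartiles, and *Lepr* lies at -0.17.

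Within the blood-forming genes, the list whose median lay nearest to *Cxcl12*, *Kitl* and *Angpt1* was that of progenitors. It was 0.80 on the log2 scale in *Dspp*+/- and 0.63 in *Dspp*-/- over 11 genes compared, with 8 and 10 higher than WT. *Cd34*, a surface protein of progenitors that endothelial cells carry as well, had 15.2 FPKM in WT, 12.5 in the *Dspp*+/- library and 16.1 in the *Dspp*-/- library. *Lmo2*, a cofactor of blood and endothelial transcription factors, had 7.78, 17.7 and 13.2 FPKM. The medians of the later lineages were further up, at 1.22 and 1.02 for the B cell list, 1.81 and 1.60 for megakaryocytes, 2.31 and 2.42 for neutrophils and 2.61 and 2.41 for red cell precursors, each in *Dspp*+/- and then *Dspp*-/-.

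Other markers of reticular cells were split between higher and lower. Of 16 genes listed for these cells, such as their transcription factors, growth factor receptors and secreted products, 7 were higher and 9 lower than WT in *Dspp*+/-, and 9 were higher and 7 lower in *Dspp*-/-. Their median log2 ratios were -0.17 and 0.09, and the latter was -0.17 with housekeeping scaling and -0.37 with the filter at 5 FPKM, so its sign depended on these settings. *Pdgfrb*, a receptor of reticular and other perivascular cells, had 41.3 FPKM in WT, 29.3 in the *Dspp*+/- library and 31.7 in the *Dspp*-/- library, a fold of 0.711 (0.681 to 0.742) and 0.769 (0.736 to 0.802). *Igfbp5*, an IGF-binding protein that osteoblasts also make, had 141, 118 and 150 FPKM. *Gas6*, a ligand of TAM receptors, had 138, 130 and 105 FPKM. On the log2(FPKM + 1) scale, *Il1rn*, the interleukin 1 receptor antagonist, which myeloid cells also make, alone passed 2-fold in the list. It had 28 fragments in WT against 212 and 139 in the mutant libraries. Its log2 ratios were 1.07 and 0.77.

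A second list held 16 further signals of the marrow environment. Of the 11 compared, 3 were higher and 8 lower in *Dspp*+/- (median -0.45), and 6 were higher and 5 lower in *Dspp*-/- (median 0.04, which was -0.08 with housekeeping scaling, -0.01 with no filter and -0.19 with the filter at 5 FPKM). *Ptn*, which encodes the growth factor pleiotrophin, was at least 2-fold lower in *Dspp*+/-, with 31.2 FPKM in WT, 14.4 in the *Dspp*+/- library and 32.4 in the *Dspp*-/- library. Its lowest level was in *Dspp*+/-, as for *Lepr*, with a fold of 0.462 (0.430 to 0.496) there and 1.04 (0.980 to 1.10) in *Dspp*-/-. *Tgfb1*, a growth factor stored in bone matrix, had 35.0, 24.2 and 22.5 FPKM, and the chemokine gene *Cxcl14* had 26.9, 19.4 and 14.3, both lower in the mutant libraries.

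Receptors and other partners of the niche proteins differed in direction among themselves. *Cxcr4*, the CXCL12 receptor of blood cells, had 9.21 FPKM in WT, 28.0 in the *Dspp*+/- library and 28.3 in the *Dspp*-/- library, a fold of 3.04 (2.69 to 3.44) and 3.07 (2.72 to 3.48). *Ackr3*, the receptor that takes CXCL12 up without G protein signalling, went the other way, with 38.0, 24.2 and 25.7 FPKM and folds of 0.637 (0.600 to 0.676) and 0.675 (0.636 to 0.717). *Cxcl12* per *Cxcr4* was therefore 4.48 (4.02 to 5.02) in WT, 2.41 (2.27 to 2.56) in the *Dspp*+/- library and 1.97 (1.85 to 2.09) in the *Dspp*-/- library, while *Cxcl12* per *Ackr3* was 1.09 (1.04 to 1.14), 2.79 (2.66 to 2.93) and 2.17 (2.06 to 2.28).

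*Kit*, the receptor of stem cell factor, had 0.959 FPKM in WT, 2.41 in the *Dspp*+/- library and 1.80 in the *Dspp*-/- library. *Kitl* stood above *Kit* in every library, with a ratio of 13.8 (11.8 to 16.2) in WT, 9.09 (8.27 to 10.0) in the *Dspp*+/- library and 12.2 (10.9 to 13.6) in the *Dspp*-/- library. The ratio in *Dspp*+/- lies below the other two. *Il7r*, the interleukin 7 receptor chain of lymphoid cells, had 0.773 FPKM in WT, 2.72 in the *Dspp*+/- library and 3.85 in the *Dspp*-/- library, folds of 3.51 (2.71 to 4.60) and 4.97 (3.87 to 6.47). *Il7* per *Il7r* was 0.361 (0.230 to 0.554), 0.171 (0.128 to 0.225) and 0.169 (0.132 to 0.215). *Il2rg*, the common chain of this receptor, had 2.48, 3.83 and 3.05 FPKM, and 30.5% of its exon length overlaps *Gm20489*.

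For *Vcam1*, *Itga4*, the alpha chain of VLA-4, had 1.14 FPKM in WT, 5.59 in the *Dspp*+/- library and 5.11 in the *Dspp*-/- library, the largest folds among the partners in *Dspp*+/- at 4.89 (4.35 to 5.53), with 4.48 (3.97 to 5.06) in *Dspp*-/-. Of its exon length 8.04% overlaps *Cerkl*. *Itgb7*, a beta chain of lymphocytes, had 3.73, 8.21 and 5.86 FPKM. *Itgb1*, the beta chain of VLA-4 that nearly all cells make, had 174, 137 and 157 FPKM, with folds of 0.787 (0.768 to 0.806) and 0.907 (0.886 to 0.928). *Vcam1* per *Itga4* was 5.84 (5.16 to 6.62) in WT, 2.58 (2.43 to 2.73) in the *Dspp*+/- library and 2.065 (1.93 to 2.21) in the *Dspp*-/- library.

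The endothelial partners of *Angpt1* are given next. *Tek*, which encodes TIE2, had 12.7 FPKM in WT, 12.9 in the *Dspp*+/- library and 13.8 in the *Dspp*-/- library, folds of 1.01 (0.936 to 1.09) and 1.085 (1.005 to 1.17). *Tie1*, the related endothelial receptor, had 21.5, 19.2 and 18.5 FPKM. *Angpt2*, whose product can oppose angiopoietin 1 at TIE2, had 5.11, 3.19 and 3.54 FPKM, folds of 0.624 (0.533 to 0.730) and 0.693 (0.593 to 0.809). *Angpt1* per *Angpt2* was 0.338 (0.2815 to 0.404) in WT, 1.10 (0.941 to 1.28) in the *Dspp*+/- library and 0.906 (0.775 to 1.06) in the *Dspp*-/- library, and *Angpt1* per *Tek* was 0.1355 (0.115 to 0.1585), 0.2715 (0.243 to 0.303) and 0.232 (0.2065 to 0.260). WT had the lowest value of both ratios, and its intervals overlap neither mutant library. *Lep*, the gene of the LEPR ligand leptin, had 14, 26 and 25 fragments, and its folds of 1.59 (0.801 to 3.30) and 1.62 (0.813 to 3.38) were within counting error of no change. Of the 11 partners compared, 7 were higher than WT in each mutant library, beside 56.3% and 50.7% of all genes. Their median log2 ratios were 0.47 and 0.22, and with the filter at 5 FPKM they were -0.07 and -0.02. On the log2(FPKM + 1) scale, *Cxcr4*, *Il7r* and *Itga4* were the 3 past 2-fold in each.

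**Figure D3:**
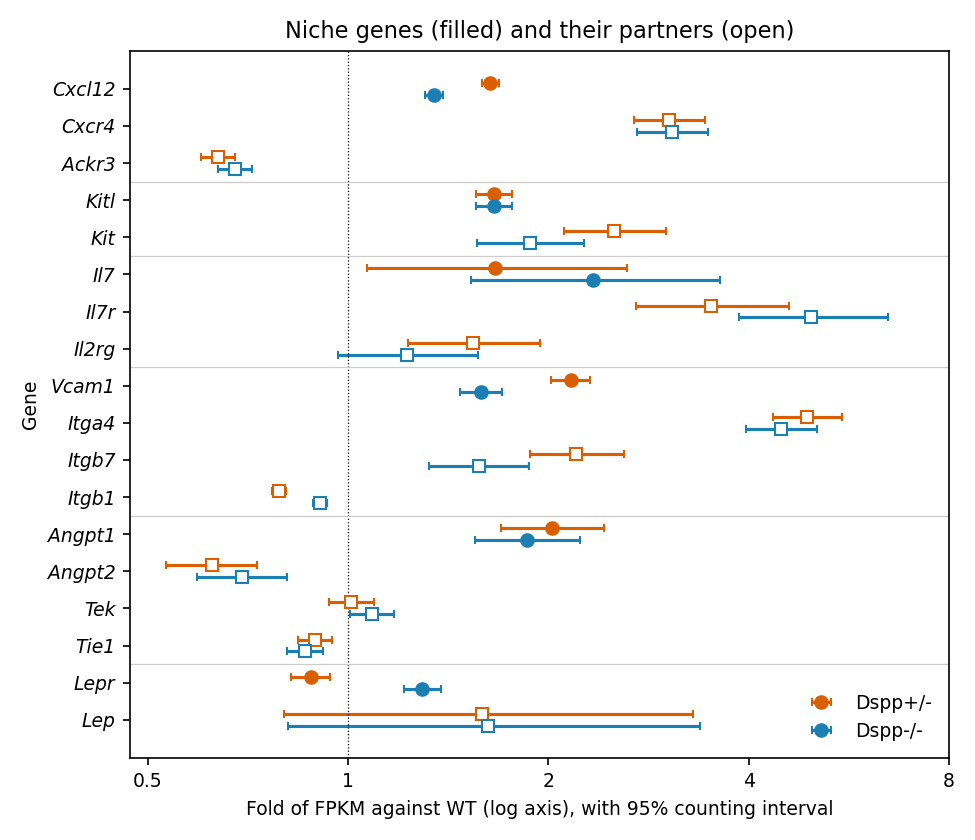
Fold of FPKM against WT on a log axis, with 95% Clopper-Pearson counting intervals, for the niche genes (filled circles) and their partners (open squares) in *Dspp*+/- and *Dspp*-/-. *Cxcr4*, *Il7r* and *Itga4* lie at 3.04 to 4.97, to the right of the niche genes, while *Ackr3* and *Angpt2* lie left of 1 and *Tek* lies near 1.

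Endothelial and adipocyte cells also express several of the niche genes, and their lists are given beside them. Over 14 endothelial genes the median log2 ratio was 0.12 for *Dspp*+/- and 0.09 for *Dspp*-/- (-0.03 and -0.05 with housekeeping scaling), with 9 and 8 higher than WT and a summed level of 291 FPKM in WT, 285 in the *Dspp*+/- library and 278 in the *Dspp*-/- library. *Cdh5*, the VE-cadherin gene, had 48.9, 56.2 and 52.8 FPKM, and *Plvap*, a gene of fenestrated endothelium, had 61.4, 28.8 and 39.0. *Vcam1* per *Pecam1*, an endothelial adhesion gene, was 0.2135 (0.200 to 0.228) in WT, 0.3735 (0.357 to 0.390) in the *Dspp*+/- library and 0.2855 (0.271 to 0.3005) in the *Dspp*-/- library, so it was higher in both mutant libraries. The 11 adipocyte genes had a median of 0.14 in *Dspp*+/- (-0.0012 with housekeeping scaling) and 0.93 in *Dspp*-/-, with 6 and 11 higher and a sum of 226, 257 and 374 FPKM. *Lpl*, the lipoprotein lipase gene, which reticular cells express too, had 50.0, 120 and 96.5 FPKM, and *Car3* had 85.1, 38.8 and 105. The order of *Car3* over the libraries, lowest in *Dspp*+/- and highest in *Dspp*-/-, was that of *Lepr*. The part of these cell types in the levels of the niche genes was not tested.

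Genes whose pair of log2 ratios lay nearest to that of each niche gene were sought among the 7129 genes whose mean reached 5 FPKM, by Euclidean distance over both comparisons, which use 3 libraries. The nearest to *Cxcl12* were *Rassf4*, *Srpk3* and *Cdnf*, and 54 genes lay within a distance of 0.1. For *Kitl* they were *Fech*, *Usp39* and *Clec12a*, of 36 within 0.1, and for *Angpt1* *Mavs*, *Ranbp10* and *Idh3a*, of 44. *Vcam1* had *Hadhb*, *Acadl* and *Gm10222* as its nearest, of 16, and *Lepr* had *Cep19*, *Ptpn4* and the endothelial gene *Emcn*, of 18. *Emcn* had 6.01 FPKM in WT, 5.07 in the *Dspp*+/- library and 8.17 in the *Dspp*-/- library, at a distance of 0.06 from *Lepr*.

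**Figure D4:**
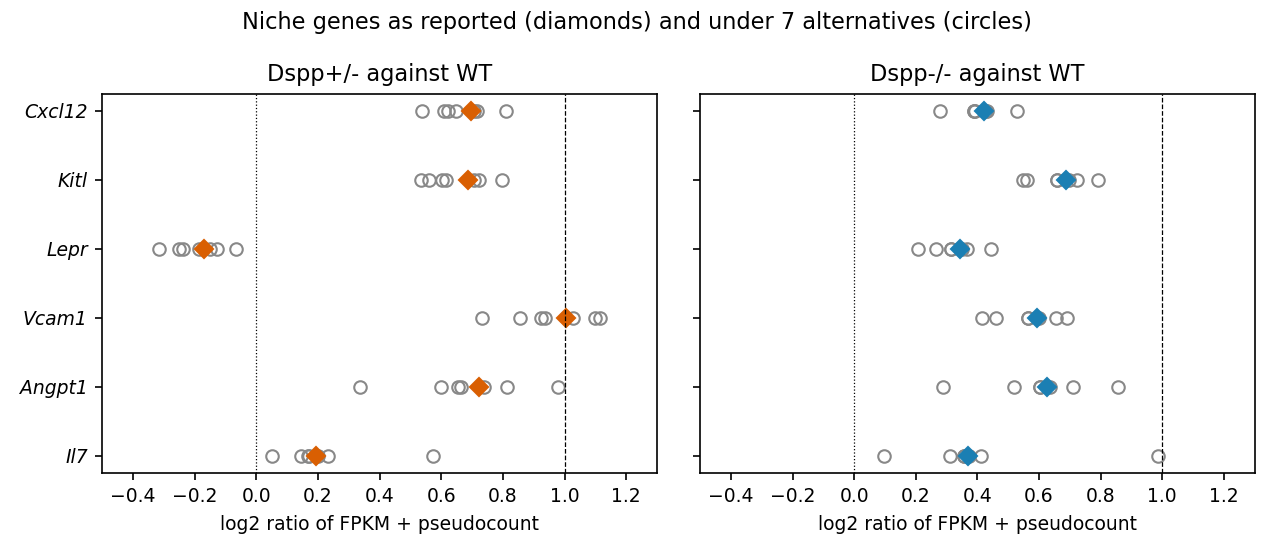
Log2 ratios of the 6 niche genes against WT as reported (diamonds) and under the 7 alternative pseudocounts and scalings (open circles), with dotted lines at 0 and dashed lines at 1. Each gene keeps its side of 0, *Lepr* in *Dspp*+/- from -0.32 to -0.07, while *Vcam1* in *Dspp*+/- spans the 2-fold line, from 0.73 to 1.11.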

How the data were processed

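Values of 26970 genes were deposited in 1 table with 1 column per genotype. The authors name no unit, and the deposited values were taken to be FPKM. The submitters' processing notes name FastQC 0.11.5, HISAT2 2.1.0, StringTie 1.3.3b and DESeq 1.28.0, with no role, and the build hg38, although the gene identifiers are those of mouse. Poly(A)-selected, paired-end libraries were sequenced. Multiplied by exon length (exons merged per gene, GENCODE M21), FPKM came out as whole fragments (within 0.05, for genes under 100 fragments) for 98.6% to 98.7% of such genes per library, from which depth and fragments were taken. Recovery, calls and intervals were tested on simulated data. FPKM does not correct for composition.

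Genes were compared as log2(FPKM + 1) where their mean reached 1 FPKM. The statistics named for the study, the Kruskal–Wallis test, cannot be used with 1 library per genotype, and no p-value is given. Named are the 6 genes, all partners, genes past 2-fold and the 3 most abundant of the reticular cell and niche signal lists, at most 2 of other lists (the most abundant in WT) and the 3 nearest genes. *Pecam1*, *Xist* and overlapping genes are named beside these, chosen after their values were seen. The members and lists were chosen with earlier results of these data known, and their choice supports nothing. Alternatives were pseudocounts of 0.1 and 5 FPKM, 5 scalings, thresholds of 1.5-fold and 4-fold, the filter dropped or raised to 5 FPKM, and other bone and blood-forming lists. Promoter sequences are RefSeq's. Computation used scipy 1.17.1, numpy 2.4.6 and pandas 2.3.3 under Python 3.11.15, with figures by matplotlib 3.10.9.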

Additional observations from a re-analysis of the deposited data

Results flagged for a closer look

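*Lepr* moved in opposite directions in the mutant libraries, with a log2 ratio of FPKM + 1 against WT of -0.17 in *Dspp*+/- and 0.34 in *Dspp*-/-. Both values use the same WT library, each is from 1 library, and the difference between them was not tested. Groups of 1 library allow no search for outlying samples.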

How the results depend on the processing

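The log2 ratios of the 6 niche genes against WT kept their sign under all 7 alternative pseudocounts and scalings. Over these, *Cxcl12* ranged from 0.54 to 0.81 in *Dspp*+/- and 0.28 to 0.53 in *Dspp*-/-, and *Lepr* from -0.32 to -0.07 and 0.21 to 0.44. Scaling without mitochondrially encoded genes put the median of all genes at 0.15 in *Dspp*+/-, and housekeeping scaling put it at -0.11 in *Dspp*-/-. No library could be left out, and no paired analysis was possible because each genotype has 1 library.

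*Vcam1* in *Dspp*+/- sat at the 2-fold threshold. On the log2(FPKM + 1) scale, the number of niche genes at least 2-fold higher there was 1, and it was 0 with a pseudocount of 5 FPKM, with median-ratio, upper-quartile and housekeeping scaling and at 4-fold, and 4 at 1.5-fold. By FPKM with no pseudocount, *Angpt1* (2.03 times WT) passed 2-fold there as well, and *Il7* (2.33 times) did in *Dspp*-/-. In *Dspp*-/- the number of niche genes past the threshold went from 0 to 3 at 1.5-fold. The 1.5-fold numbers were counted with the reported scaling only. *Vcam1* in *Dspp*-/- had 0.56 with median-ratio and 0.57 with upper-quartile scaling, both short of 1.5-fold. The number nearer to the blood-forming median in *Dspp*-/- was 3, and it was 6 with a pseudocount of 5 FPKM and without the erythroid list, 5 with no filter and 1 with the filter at 5 FPKM, and in *Dspp*+/- it was 3 to 5. The share of all genes nearer to that median was not counted under these alternatives. It can move with the medians, so a higher number of niche genes there has nothing to be set against. The filter at 5 FPKM left *Il7* and *Angpt1* out of the number nearer to the blood-forming median. It also raised that median in *Dspp*-/- to 2.24, which put *Vcam1* nearer to the bone median. All 6 genes were above every bone gene under the alternative pseudocounts, scalings, filters and lists, except that *Dspp*+/- had 4 with no filter and 4 with the chondrocyte list joined. Under the same alternatives 0 were above the blood-forming median. Both counts were chosen after seeing the data.

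By construction, log2 ratios of low genes shrink as the pseudocount grows. With 0.1 FPKM the medians in *Dspp*+/- were 4.37 for the erythroid, 2.64 for the megakaryocyte and 2.12 for all blood-forming genes, and in *Dspp*-/- 4.01, 2.44 and 2.21, with 1.32 for B cells. With 5 FPKM they were 1.59 for the erythroid, 1.89 for the neutrophil, 1.25 for all blood-forming and -1.37 for the bone genes in *Dspp*+/-. In *Dspp*-/- they were 1.34 for the erythroid, 2.10 for the neutrophil, 0.81 for the megakaryocyte, 0.53 for the B cell and 0.96 for all blood-forming genes. Scaling without mitochondrially encoded genes gave -1.40 for the bone genes in *Dspp*+/- and 0.19 for skeletal muscle in *Dspp*-/-. The filter at 5 FPKM gave 2.24 for the blood-forming genes in *Dspp*-/-, from fewer genes. Medians changed sign with the scaling or filter for the partner, reticular cell, other niche signal, endothelial, mural, macrophage, adipocyte, fibroblast and tendon, and skeletal muscle lists, in 1 or both comparisons. The partner median in *Dspp*+/- went from 0.47 to -0.07 with the filter at 5 FPKM. Depth limits *Il7*, with 32 fragments in WT.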

Other observations

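Lists of other cell types of the condyle are given as values. The 11 macrophage genes compared, cells that can carry VCAM1, had median log2 ratios of 0.13 in *Dspp*+/- (-0.02 with housekeeping scaling) and -0.07 in *Dspp*-/- (0.03 with scaling without mitochondrially encoded genes and 0.22 with no filter). Of these, 7 were higher and 4 lower than WT in *Dspp*+/-, and 5 higher and 6 lower in *Dspp*-/-. *Csf1r*, the receptor of CSF1, had 43.2 FPKM in WT, 25.1 in the *Dspp*+/- library and 33.2 in the *Dspp*-/- library. Its ratio in *Dspp*+/- was the lowest of the list. The 7 mural genes had medians of 0.12 and 0.03 (-0.04 and -0.10 with housekeeping scaling), with 5 higher and 2 lower than WT in each mutant library. *Rgs5*, a pericyte gene, had 152, 195 and 201 FPKM, the highest ratio of the list in both comparisons. The 11 fibroblast and tendon genes had medians of -0.47 and -0.10 (the latter 0.01 with scaling without mitochondrially encoded genes), with 9 and 7 lower than WT. The 17 chondrocyte genes had medians of -1.99 and -1.04, the 14 osteoclast genes -1.04 and -0.57, and the 12 skeletal muscle genes 0.38 and 0.08 (the latter -0.06 with housekeeping scaling). Of the 8 T cell genes, 2 had a mean of at least 1 FPKM, *Cd4* with 1.78, 2.45 and 1.69 FPKM and *Cd28* with 1.49, 0.823 and 1.17. The 13 housekeeping genes had medians of 0.13 and 0.14.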
